A study of Mus musculus with 12 samples.

Results

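Among the acetylated regions of mouse liver, 340 were B6-specific and lay at a gene start. Acetylation of lysine 9 of histone H3 (H3K9ac) had been profiled by chromatin immunoprecipitation and sequencing (ChIP-seq), and each library had its own list of peaks, which are stretches where the precipitated DNA exceeded the background. Merging the peaks of both parental strains gave 25803 regions, and 12781 of these came within 1 kb of the transcription start site (TSS) of a protein-coding gene. A region was B6-specific when it held a peak of both C57BL/6J lists and of neither MSM/Ms list. The members were thus selected on the parental peak calls themselves, so their parental values are a description and no test was made on them. They made up 2.66% of the regions at a TSS and 40.0% of the 849 B6-specific regions, and they lay at the starts of 370 genes. The number depends on the libraries and on the processing. It was 2873 without B6 replicate 2, 580 and 596 without MSM replicates 1 and 2, 172 when peaks up to 500 bp apart were merged and 195 when each list was cut to the same covered length.

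The livers came from adult mice. C57BL/6J (B6), the strain of the reference genome, and MSM/Ms (MSM), an inbred strain of Japanese wild mouse origin, had 2 mice each. Of the reciprocal hybrids, F1 BM had B6 as its mother's strain and MSM as its father's, F1 MB the reverse, and each was 1 mouse, so F1 values have no replicate error. The labels give no sex and no treatment other than formaldehyde fixation, and 6 input libraries were not used. The question was how acetylated promoter regions differ between the strains and whether the hybrids carry them. Read counts are not part of the lists, and read yields given with the study were not used here. Where a list has no peak, absence and a mark too weak for that library cannot be told apart. In whole liver, fewer cells with the mark and less mark per cell cannot be told apart either.

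The libraries were unequal. They held 11619 to 22968 peaks over 6.28 to 16.0 Mb, with B6 replicate 1 the largest and B6 replicate 2 the smallest list, F1 BM at 20173 and F1 MB at 13235 peaks. All 6 had a peak at the start of 9 of 10 hepatocyte marker genes. Of 10 markers of sinusoidal endothelial cells, 8 had a peak in B6 replicate 1, 0 in B6 replicate 2, 3 and 6 in the MSM libraries, 9 in F1 BM and 0 in F1 MB. Of 12 Kupffer cell markers, 3 had a peak in B6 replicate 1 and 0 elsewhere, and stellate, bile duct, lymphocyte and neutrophil markers had at most 2 in any library. Among all these markers only Fgb, a hepatocyte gene, lay at a member. All 6 libraries had a peak at the start of Xist, with folds from 4.20 to 10.01, and none had one at the starts of 4 genes of the Y chromosome (Ddx3y, Uty, Kdm5d and Eif2s3y), although 1 to 9 peaks fell elsewhere on it in the MSM and F1 lists.

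Histone acetylation loosens the hold of nucleosomes on DNA and recruits proteins that open chromatin. H3K9ac is laid down by acetyltransferases of the Gcn5 and PCAF family and is found at the starts of active genes, mostly on the nucleosomes just downstream of the TSS and, at many promoters, also on those just upstream. In the liver it marks genes of general cell upkeep as well as those of bile acid, lipid, hormone and drug metabolism, many of which belong to families of close copies.

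A set of 7 members are shown by sequence because they hold the highest member, 2 pairs of near-identical copies, and 2 flanked members, of which Kyat3 had a peak in both hybrids and Leo1 in neither. Each run is a part of the member upstream of the start, free of annotated exons, read 5′ to 3′ on the strand of the gene from the RefSeq GRCm38 sequence, and holds up to 200 bases. Capitals mark matches on either strand to any of 8 short motifs, the TATA box TATAAA, the CCAAT box CCAAT, the GC box GGGCGG, the E box CACGTG, the nuclear receptor half-site AGGTCA, the STAT palindrome TTCNNNGAA, the C/EBP palindrome TTGCGCAA and the ETS core CCGGAA. Overlapping matches merge into 1 block of capitals.
Ceacam1 (chr7:25477604-25477769, minus strand): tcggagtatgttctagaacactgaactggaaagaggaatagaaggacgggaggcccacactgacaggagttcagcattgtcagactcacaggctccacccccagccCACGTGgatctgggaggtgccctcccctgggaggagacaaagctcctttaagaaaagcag
Cyp2b9 (chr7:26173211-26173410, plus strand): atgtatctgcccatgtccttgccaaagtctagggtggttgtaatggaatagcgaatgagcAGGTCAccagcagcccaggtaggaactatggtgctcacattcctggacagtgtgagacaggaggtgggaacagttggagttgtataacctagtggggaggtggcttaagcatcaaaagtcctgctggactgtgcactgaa
Cyp2b13 (chr7:26061297-26061496, plus strand): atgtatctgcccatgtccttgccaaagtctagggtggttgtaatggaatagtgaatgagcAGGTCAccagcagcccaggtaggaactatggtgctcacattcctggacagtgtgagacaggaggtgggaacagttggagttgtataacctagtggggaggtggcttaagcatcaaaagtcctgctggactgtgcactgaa
Srp54b (chr12:55154904-55155103, plus strand): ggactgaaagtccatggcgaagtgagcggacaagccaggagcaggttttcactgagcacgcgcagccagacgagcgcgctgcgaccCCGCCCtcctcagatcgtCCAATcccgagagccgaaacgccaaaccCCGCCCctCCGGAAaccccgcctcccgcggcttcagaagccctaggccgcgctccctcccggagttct
Srp54c (chr12:55229968-55230167, plus strand): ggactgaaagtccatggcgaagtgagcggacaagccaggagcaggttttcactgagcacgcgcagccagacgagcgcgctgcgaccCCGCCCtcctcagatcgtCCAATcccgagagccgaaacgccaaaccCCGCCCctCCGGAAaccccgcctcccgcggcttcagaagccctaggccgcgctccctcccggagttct
Kyat3 (chr3:142700815-142701014, plus strand): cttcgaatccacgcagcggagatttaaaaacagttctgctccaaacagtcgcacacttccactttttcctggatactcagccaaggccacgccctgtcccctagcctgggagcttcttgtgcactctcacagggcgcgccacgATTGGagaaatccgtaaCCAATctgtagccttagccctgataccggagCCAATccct
Leo1 (chr9:75441189-75441388, plus strand): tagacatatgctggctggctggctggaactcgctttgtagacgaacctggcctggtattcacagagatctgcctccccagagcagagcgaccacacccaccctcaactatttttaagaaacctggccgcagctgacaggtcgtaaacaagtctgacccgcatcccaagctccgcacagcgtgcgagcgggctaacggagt

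The runs of Srp54b and Srp54c were identical over 200 of 200 bases. Those of Cyp2b9 and Cyp2b13 shared 199 of 200 bases (99.5%) and differed by C52T, counted from the first base printed and with the Cyp2b9 base first. The Ceacam1 run held an E box, both Cyp2b runs a nuclear receptor half-site, the Srp54 runs a CCAAT box, an ETS core and GC boxes, and the Kyat3 run 3 matches to CCAAT, 1 of them on the opposite strand. The Leo1 run held no match to these letters.

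The members are described from the highest down, ordered by the lower of the 2 B6 values of −log10 q. Ceacam1, the first, encodes an adhesion molecule that promotes the uptake of insulin by hepatocytes. Its region at chr7:25476083-25477769, over the TSS and the 5′ UTR, had a peak fold of 17.4 and 11.05 in B6 replicates 1 and 2, of 8.41 in F1 BM and of 5.67 in F1 MB, where the fold is the enrichment of a peak over the background of the peak caller. Both hybrids were thus below both B6 libraries, and the nearest MSM peak was 25152 bp away.

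Cytochrome P450 genes came next. Cyp2b9, a P450 of the Cyp2b cluster, had a region of 3681 bp at chr7:26172870-26176550 with folds of 8.41 and 8.37 in B6 and 6.71 in F1 BM, and no peak in F1 MB. Cyp4a14, a fatty acid ω-hydroxylase induced by the receptor PPARα, had 10.1 and 7.48 in B6 at chr4:115494397-115496144, 5.05 in F1 BM and 3.41 in F1 MB. At Cyp4a14 both hybrids carried the peak at a lower fold than either B6 library. Cyp2b13, the near-copy of Cyp2b9, had 12.4 and 4.92 in B6 at chr7:26061058-26064510 and no peak in either hybrid. It was the only one of the 25 highest members with no F1 peak. Its fold was above that of Cyp2b9 in B6 replicate 1 and below it in B6 replicate 2. Of their 50-base words 43.9% at Cyp2b9 and 44.4% at Cyp2b13 occurred again in the genome. The most repeated word of the Cyp2b9 region occurred 12056 times and that of Cyp2b13 638 times. These shares thus count repeats at any place, not only in the other gene, and how reads were shared between these copies is uncertain.

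The copies of Srp54, a, b and c, which encode the GTPase subunit of the signal recognition particle that brings nascent secretory proteins to the endoplasmic reticulum, had their 3 members within 151.5 kb of chromosome 12. The region at Srp54a, shared with the start of 2700097O09Rik (chr12:55079633-55081393), had 8.14 and 7.999 in B6, and 3.63 and 4.55 in F1 BM and F1 MB. Srp54b (chr12:55154548-55156077) had 10.6 and 6.33 in B6, 5.04 in F1 BM and 7.48 in F1 MB. Srp54c (chr12:55229587-55231182) had 5.42 and 6.78 in B6, 4.81 in F1 BM and 7.07 in F1 MB. All 3 had peaks in both hybrids, and the F1 MB folds of Srp54b and Srp54c lay above those of B6 replicate 2. Of the 50-base words of these regions, 40.7% at Srp54a, 97.8% at Srp54b and 96.5% at Srp54c occurred again in the genome, so how reads were shared among the copies is uncertain.

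H2-K1, which encodes a class I MHC heavy chain, had 10.5 and 6.75 in B6 at chr17:33999710-34000274, and 4.29 and 5.27 in F1 BM and F1 MB. Its nearest MSM peak was 23983 bp away. The MHC differs in haplotype between mouse strains. Ppil1, a cyclophilin of the spliceosome, had 9.25 and 6.14 in B6, 5.01 in F1 BM and 5.64 in F1 MB. Edc3, an enhancer of mRNA decapping, had 9.76 and 5.44 in B6, 3.61 in F1 BM and 5.32 in F1 MB. At these 3 starts the hybrids were below both B6 libraries.

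Others of the 25 highest had an MSM peak close by, which is taken up below. They were Psph, which encodes the last enzyme of serine synthesis, with 9.06 and 7.97 in B6, and 3.95 and 4.96 in F1 BM and F1 MB, and Ap1ar, a regulator of the AP-1 adaptor of vesicle transport, with 12.6 and 7.11 in B6, and 5.08 and 6.87 in F1 BM and F1 MB. The F1 folds were lower than both B6 folds at these 2 starts as well. Kyat3, an aminotransferase of the kynurenine pathway, had 6.33 and 5.59 in B6, 3.87 in F1 BM and 4.51 in F1 MB. Ndufs5, a subunit of respiratory complex I, had 8.75 and 6.29 in B6, 2.79 in F1 BM and 4.84 in F1 MB. Nr1h2, the oxysterol receptor LXRβ, had 4.97 and 5.66 in B6, 3.69 in F1 BM and no F1 MB peak. Wdr89, Zfp959, Clptm1l, Atrnl1 and Ropn1l were of the same kind, with B6 folds from 5.18 to 12.3, and Zfp959 and Clptm1l had no F1 MB peak. The rest of the 25 were Snx16, a sorting nexin, Apol9b, Scamp2, a membrane protein of secretory vesicles, Olfr1033, an olfactory receptor gene, and Keg1, with B6 folds from 4.52 to 10.6.

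**Figure D1:**
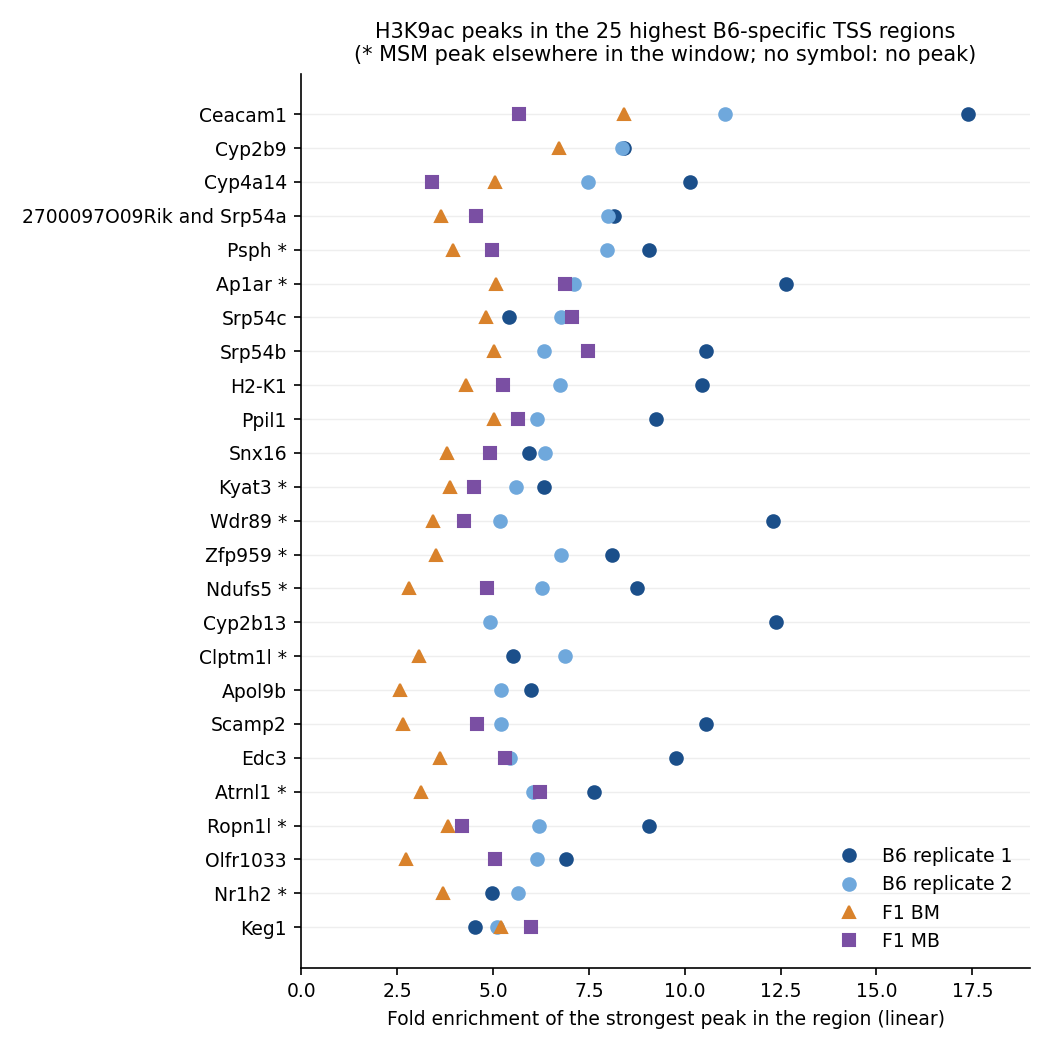
Fold enrichment of the strongest peak (linear x axis) in each of the 25 highest B6-specific regions at a TSS (y axis, by gene), as circles for the B6 libraries, triangles for F1 BM and squares for F1 MB; no MSM library had a peak there. A peak was present in F1 BM at 24 and in F1 MB at 19 of the 25, and at Cyp2b13 in neither.

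The members fell into 2 kinds. At 174 (51.2%) no MSM peak lay in the TSS window, and these are called isolated. At 166 (48.8%) an MSM peak lay elsewhere in the same window, and these are called flanked. An MSM peak elsewhere in the window was found at 47.3% of all regions at a TSS, a share close to that of the members. When each list was cut to the same covered length, 23.6% of the B6-specific regions then found were flanked. With the same number of peaks in each list, 36.9% were. Of the 25 highest members, 15 were isolated and 10 flanked.

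The distance from the isolated members to the nearest MSM peak had a median of 44687 bp and ran from 152 to 1756801 bp, and at 144 of 174 it exceeded 10000 bp. The shortest, 152 bp, was at Lrp4. In the flanked members the gap to the neighbouring region with an MSM peak had a median of 191.5 bp and was under 500 bp at 159 of 166. That neighbour held peaks of all 4 parental libraries at 108 of 166 (65.1%) of both B6 libraries at 120, of 1 B6 library at 42 and of neither at 4 (Lsm8, Cntrl, Suox and Mxd1). Both MSM libraries had a peak there at 131. The neighbour lay downstream of the member, in the direction of transcription, at 126 (75.9%).

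The position relative to the start is a description, since a flanked member by its definition shares the window with another region. The midpoint of the isolated members lay downstream of the nearest TSS at 148 of 174 (85.1%), with a median of 338 bp, and that of the flanked members upstream at 121 of 166 (72.9%), with a median of −336.5 bp. Regions at a TSS with peaks in all 4 parental lists, 5510 in number, had a midpoint downstream at 77.8%, with a median of 400.5 bp. Members covered a TSS itself at 73 of 340 (21.5%), 50 isolated and 23 flanked, against 44.9% of the regions in all 4 lists. By the annotation 185 members overlapped a UTR of their own gene, 16 another exon, 15 an intron alone, and 124 lay outside it.

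**Figure D2:**
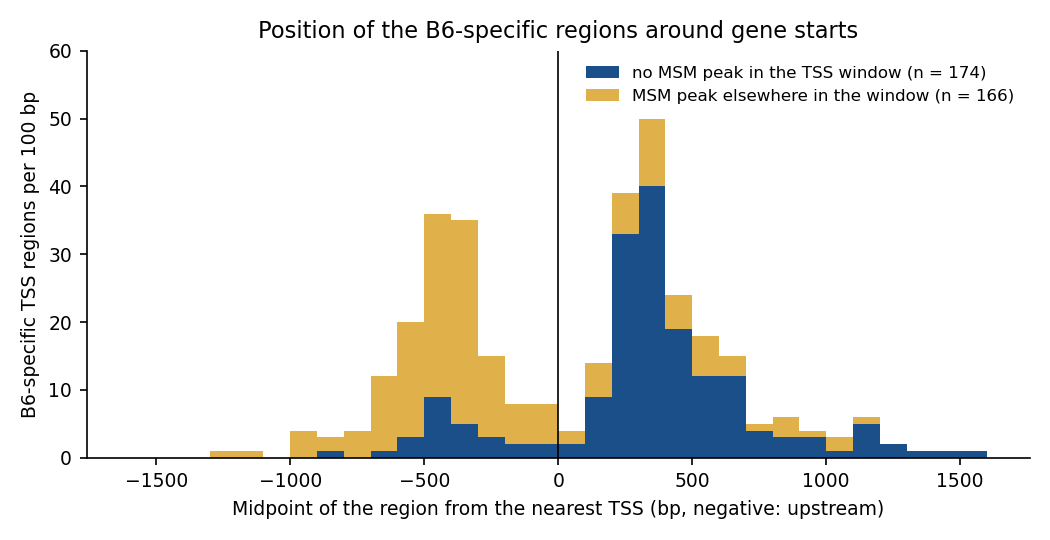
Number of B6-specific regions (y axis, per 100 bp) by the position of their midpoint from the nearest TSS (x axis, bp, negative upstream), stacked as isolated (174) and flanked (166). The isolated members sit mostly downstream, median 338 bp, and the flanked mostly upstream, median −336.5 bp.

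The members were narrow and of low fold beside the regions in all 4 lists, but close to the classes most like them. Their width had a median of 565.5 bp, 646 bp in the isolated and 483 bp in the flanked, against 1018.5 bp in the regions in all 4 lists. The fold ran from 2.61 to 17.4 in B6 replicate 1, with a median of 5.68, and from 2.18 to 11.05 in B6 replicate 2, with a median of 4.12. The corresponding medians in the regions of all 4 lists were 8.71 and 4.99. Regions at a TSS in both B6 lists and 1 MSM list had medians of 623 bp, 6.13 and 4.23. B6-specific regions away from a TSS had 589 bp, 5.16 and 3.94. Of the members, 44 (12.9%) exceeded the median lower B6 −log10 q of the regions in all 4 lists, 10.1. The members' own median of that value was 5.44. Regions at a TSS in both B6 lists and 1 MSM list had 6.04, and B6-specific regions away from a TSS 5.46. At the edge of the rule, the lowest members were Vhl, Tmx3 and the second region of Tmpo, with a lower B6 −log10 q of 1.75, 1.72 and 1.49, near the lowest value of the lists, 1.302. Just outside lay Cdc42bpb, Skil and Slc17a3, each with both B6 peaks and 1 MSM peak, whose −log10 q was 1.46, 1.47 and 1.60.

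The F1 lists were not used by the rule. In F1 BM 199 of 340 members held a peak, 58.5% (95% Wilson interval 53.2 to 63.6, which covers counting error over regions only), and F1 MB in 103, 30.3% (25.7 to 35.4). The same shares over all regions at a TSS were 67.1% and 57.5%. Without B6 replicate 2, the 2873 B6-specific regions then found had shares of 25.3% in F1 BM and 11.7% in F1 MB. Both hybrids had a peak at 86 members, F1 BM alone at 113, F1 MB alone at 17 and neither at 124. The shares of isolated and flanked members lay within each other's intervals, at 56.9% (49.5 to 64.0) and 60.2% (52.6 to 67.4) in F1 BM and 30.5% (24.1 to 37.7) and 30.1% (23.7 to 37.5) in F1 MB.

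Regions in all 4 parental lists had an F1 BM peak at 96.6% and an F1 MB peak at 92.4%, and those in both B6 and only 1 MSM list at 75.6% and 54.8%. Of the 111 MSM-specific regions at a TSS, 47.7% (38.7 to 56.96) had a peak in F1 BM and 18.9% (12.7 to 27.2) in F1 MB. The 2984 regions found in exactly 1 parental list had shares of 20.5% and 8.88%. The 509 B6-specific regions away from a TSS had 67.8% (63.6 to 71.7) in F1 BM and 26.7% (23.1 to 30.7) in F1 MB. F1 BM, the longer list, thus had the higher share in every one of these classes.

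**Figure D3:**
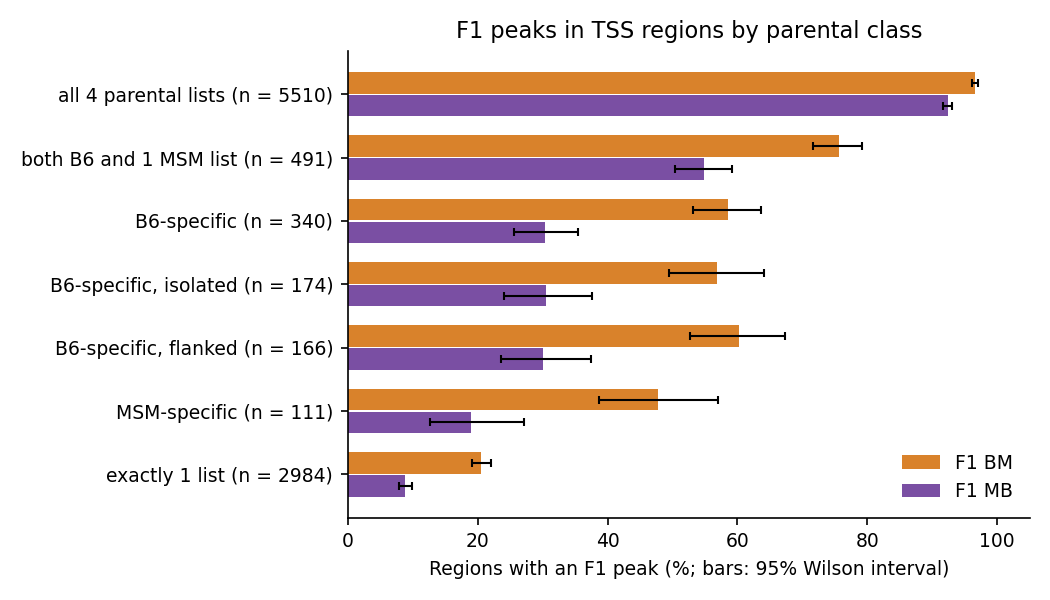
Share of regions at a TSS with a peak in F1 BM or F1 MB (x axis, %, bars with 95% Wilson intervals) by class of parental calls (y axis). B6-specific regions stand at 58.5% and 30.3%, between the regions in both B6 and 1 MSM list and those in exactly 1 list.

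The order of the hybrids did not hold when the lists were made equally long. When each library was cut to its 11619 strongest peaks, 40.1% of the B6-specific regions then found held a peak in F1 BM and 44.3% in F1 MB. When each was cut to a covered length of 6.28 Mb, the shares were 31.3% and 59.0%. A difference between the 2 directions of the cross can therefore not be told apart from a difference in list length. The regions chosen also changed, since 216 of the 340 members overlapped a B6-specific region with equal numbers of peaks and 41 with equal covered length. Of the 25 highest members, all 25 and 15 did so, Ceacam1, Cyp2b9, Cyp4a14, Cyp2b13, H2-K1, Psph and Ap1ar among the 15. Lists were cut by −log10 q, and B6 replicate 2, the shortest, lost no peak. A member could therefore be lost only through its B6 replicate 1 peak. That members ranked high by B6 −log10 q remained follows from this, and it is no independent support for them.

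The share with an F1 peak was higher among members with stronger B6 peaks. In F1 BM it was 48.2%, 47.1%, 55.8% and 83.3% from the lowest to the highest of 4 bins of the members by the lower B6 −log10 q, with borders at 4.11, 5.44 and 7.83. In F1 MB it was 18.8%, 23.5%, 27.9% and 51.2%. Regions in all 4 lists in the same bins had 90.1%, 90.9%, 94.7% and 98.8% in F1 BM, and 81.3%, 85.7%, 85.5% and 96.8% in F1 MB. The members were below the regions in all 4 lists in each bin and in both hybrids, but the highest bin is open above 7.83 and is not matched in strength, since the upper quartile of the lower B6 −log10 q was 16.0 in those regions. The regions in both B6 lists and 1 MSM list had 68.6% (59.1 to 76.8), 75.6% (65.8 to 83.3), 70.3% (62.7 to 77.0) and 86.1% (79.5 to 90.8) in F1 BM, and 46.1%, 54.4%, 50.3% and 66.0% in F1 MB. Members were lower than these in every bin, with intervals that did not overlap in the lower 2 bins of F1 BM (37.9 to 58.7 and 36.8 to 57.6 in members) and did overlap in the upper 2 (45.3 to 65.8 and 73.9 to 89.8). In F1 MB the intervals did not overlap in the lower 3 bins, where the members' upper limits were 28.4, 33.6 and 38.2% and the lower limits of the other class 36.7, 44.2 and 42.5%, and did overlap in the highest (40.7 to 61.6 in members and 57.9 to 73.2). These intervals cover counting error over regions within 1 library per hybrid. Whether they overlap is therefore no test, and it does not show how other F1 mice would differ.

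**Figure D4:**
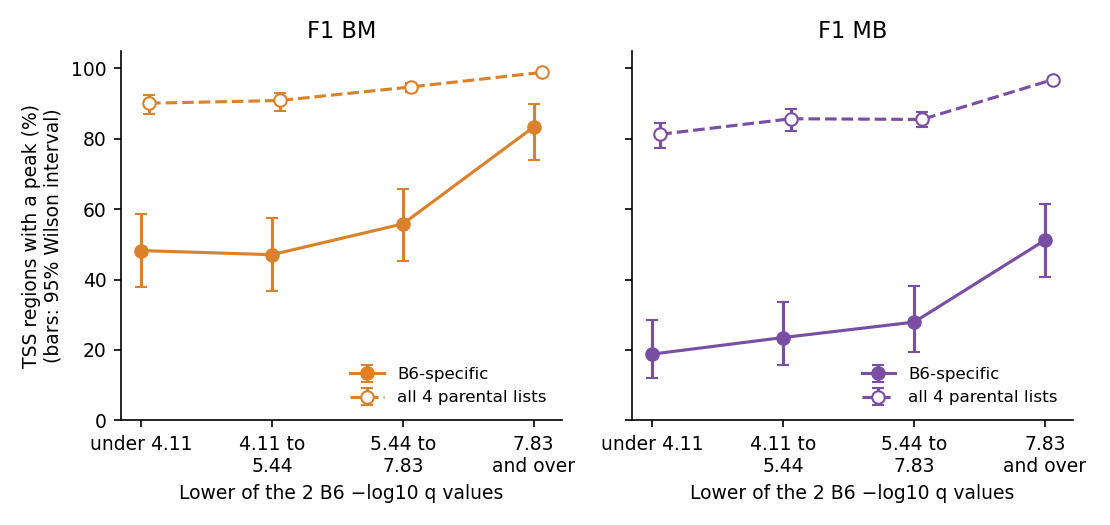
Share of regions with a peak in F1 BM (left) or F1 MB (right) (y axis, %, with 95% Wilson intervals) by the lower of the 2 B6 −log10 q values (x axis, 4 bins). Filled circles are B6-specific regions at a TSS and open circles regions in all 4 parental lists, which lie higher in each bin, in the highest bin at 98.8% against 83.3% in F1 BM.

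Where a hybrid had a peak, the median of its fold relative to B6 was close to that in regions of all 4 lists. F1 folds below both B6 folds were, however, more frequent in the members. The F1 BM fold over the mean of the 2 B6 folds had a median of 0.611 in 199 members and 0.620 in 5325 regions of all 4 lists, and the F1 MB fold a median of 0.779 in 103 members and 0.782 in 5092 such regions. The F1 BM fold was below both B6 folds at 152 of 199 members (76.4%) and at 68.5% of those regions, and the F1 MB fold at 57 of 103 (55.3%) and 40.8%. Where both hybrids had a peak, the F1 MB fold was above the F1 BM fold at 69 of 86 members (80.2%) and at 75.0% of the regions in all 4 lists. Only members with a detected F1 peak enter these ratios, which leaves out the weakest. The rule also chose the members by their B6 peaks, so the comparisons with B6 folds are a description and no test.

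The highest members with a peak in neither hybrid were Cyp2b13, Leo1, Enho, Gas1 and the first region of Tmpo. Leo1, a subunit of the PAF1 complex of transcription elongation, had 5.22 and 5.88 in B6 at chr9:75441040-75441388, with an MSM peak 180 bp away. Enho, which encodes the secreted peptide adropin, had 6.72 and 5.21 in B6 and no MSM peak within 72953 bp. Gas1 had 6.48 and 4.63 and Tmpo, a protein of the nuclear lamina, 4.66 and 4.52, both next to an MSM peak.

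Genes were read against 6158 gene starts with a region in both B6 lists, of which 6.01% had a B6-specific region and 2.91% an isolated one. The gene lists were drawn up with earlier results of these data known, so their shares are no independent evidence. Genes with female-biased expression in mouse liver stood highest, with 9 of 21 such starts (42.9%, 95% Wilson interval 24.5 to 63.5), all 9 isolated. These 9 lay at 6 places of the genome, counting starts within 1 Mb of each other as 1. Over all 41 listed genes, 9 had a B6-specific region, against 370 of 21911 over all genes. An MSM-specific region was found at 2 of the 41, Hao2 and Sult3a2, against 113 of 21911. A share above that of all genes was thus not particular to the B6-specific regions, though the MSM share rests on 2 genes.

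Besides Cyp2b9, Cyp4a14 and Cyp2b13, described above, Cyp17a1, the steroid 17α-hydroxylase, had 8.69 and 5.08 in B6 and 4.20 in F1 BM. Abcd2, a peroxisomal carrier of very long chain fatty acids, had 7.87 and 4.34 in B6 and 3.35 in F1 BM. Cyp39a1, an oxysterol 7α-hydroxylase whose region also held the start of Slc25a27, had 6.90 and 3.94 in B6, 4.20 in F1 BM and 3.84 in F1 MB. Cyp17a1 and Abcd2 had no F1 MB peak.

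Cyp2b10, the phenobarbital-induced P450, had 5.05 and 3.98 in B6 and 2.84 in F1 BM. The hydroxysteroid sulfotransferases Sult2a1 and Sult2a2 had 5.31 and 3.59, and 3.32 and 3.28, in B6 and no F1 peak. In all, 6 of these 9 starts had a peak in F1 BM and 2 in F1 MB, Cyp4a14 and Cyp39a1. Their nearest MSM peaks lay 12718 to 387911 bp away. Of the 9 genes, 5 remained when members of repeated sequence were left out, against 324 of the 370 genes of all members, and 4 (Cyp2b9, Cyp4a14, Cyp2b13 and Cyp17a1) with equal covered length, against 48 of 370. The cut to equal length kept members by their B6 replicate 1 −log10 q, so it is a description only. The other 12 of the 21 starts, such as Cyp4a10, Fmo2 and Trim24, had B6 regions that met an MSM peak.

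Genes with male-biased expression had 2 of 18 (11.1%, 3.10 to 32.8), Keg1, with 4.52 and 5.09 in B6, and 5.20 and 5.98 in F1 BM and F1 MB, and Mup17, a major urinary protein gene, with 3.93 and 2.41 in B6 and no F1 peak. Of the 42 listed male-biased genes 5 had an MSM-specific region (C6, Cyp2d40, Mup12, Selenbp2 and Susd4), against 113 of 21911 over all genes. The phase I enzymes of drug metabolism had 11 of 49 (22.4%, 13.03 to 35.9), of which 9 were isolated. They overlap the female-biased list in Cyp2b9, Cyp4a14, Cyp2b13 and Cyp2b10, and the others were Cyp2c38, with 7.87 and 5.16 in B6, 5.58 in F1 BM and 6.61 in F1 MB, Cyp2d22, Ces1g, Ces2a, Cyp3a13, Cyp2r1 and Cyp2j5. Of the 11, only Cyp2b9, Cyp4a14 and Cyp2b13, all on the female-biased list, remained with equal covered length, against 48 of the 370 genes of all members. That cut, too, went by the B6 replicate 1 −log10 q. Of the 115 listed phase I genes 4 had an MSM-specific region (Aldh1a7, Ces2h, Cyp2c70 and Cyp2d40), also a higher share than over all genes.

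Interferon response and antigen presentation had 4 of 22 (18.2%, 7.31 to 38.5). H2-Q4 had 8.36 and 3.99 in B6, 5.65 in F1 BM and 4.25 in F1 MB, whereas H2-T22, with 5.21 and 3.12, and Ifit3, an interferon-induced antiviral gene, with 6.94 and 2.91, had no F1 peak.

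The remaining lists had shares from 0 to 12.5%, against the 6.01% of all starts. Conjugating enzymes had 2 of 23 (Sult2a1 and Sult2a2). Of the 63 listed genes, 4 had an MSM-specific region (Sult3a2, Sult5a1, Ugt1a10 and Ugt2b37), against 113 of 21911 over all genes. Drug and bile acid transporters had 1 of 12 (Abcc6), fatty acid oxidation and PPARα targets 2 of 26 (Cyp4a14 and Vnn1), bile acid synthesis 1 of 16 (Cyp39a1), glucose and insulin handling 2 of 20 (Ceacam1 and Igfbp1) and the circadian clock 1 of 12. The last was Npas2, a partner of Bmal1, with 13.01 and 5.25 in B6, 3.02 in F1 BM and no F1 MB peak. Vnn1, the pantetheinase, had 7.76 and 3.91 in B6 and Igfbp1, which binds insulin-like growth factors, 4.01 and 4.06, with an F1 peak at Igfbp1 alone, of 3.92 in F1 BM. Fatty acid synthesis had 1 of 18, Scd1, the stearoyl-CoA desaturase, with 7.83 and 4.73 in B6, 3.44 in F1 BM, 6.32 in F1 MB and the nearest MSM peak 137723 bp away. Acute phase, complement and coagulation genes had 3 of 53, among them Hamp, which encodes the iron hormone hepcidin, with 7.95 and 5.10 in B6, and 4.42 and 5.51 in F1 BM and F1 MB. The others, Orm1 and Fgb, which encode orosomucoid and the fibrinogen β chain, were flanked and lay upstream of the gene, Fgb with 6.21 and 3.10 in B6, 3.62 in F1 BM and 4.14 in F1 MB.

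Housekeeping lists had 8 of 104 for ribosome and translation and 11 of 133 for the mitochondrial ribosome and respiratory chain. Protein targeting and vesicle transport had 11 of 150, DNA repair and cell cycle 4 of 62 and zinc finger genes 10 of 141. Clustered histone genes had 2 of 16, Hist1h3c and Hist1h2bb, which share 1 region. These lists were matched on the beginning of gene symbols and hold some genes of other function, such as Cops6, a COP9 signalosome subunit counted under protein targeting, and Cdc42ep5, an effector of the GTPase Cdc42 counted under cell cycle. In translation 2 of the 8 were isolated, and in the respiratory chain list 4 of the 11, Ndufs5 being a flanked one. Uqcr11, a subunit of complex III, had 8.04 and 5.31 in B6, 2.62 in F1 BM and 4.37 in F1 MB, with a shared region 68 bp away. Rpl13a, a ribosomal protein, had 5.77 and 4.29 in B6 and 2.62 in F1 BM, and Eif3f, a subunit of initiation factor eIF3, 3.999 and 4.49 in B6 and 2.94 in F1 BM, with no MSM peak within 583360 bp. Cholesterol synthesis and uptake (17 starts), amino acid breakdown and the urea cycle (33), the integrated stress response (18) and immediate early and heat shock genes (25) had 0 members. Of the 26 listed cholesterol genes 2, Lss and Sqle, had an MSM-specific region, against 113 of 21911 over all genes. Each further list named here had 0 to 3 such genes.

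**Figure D5:**
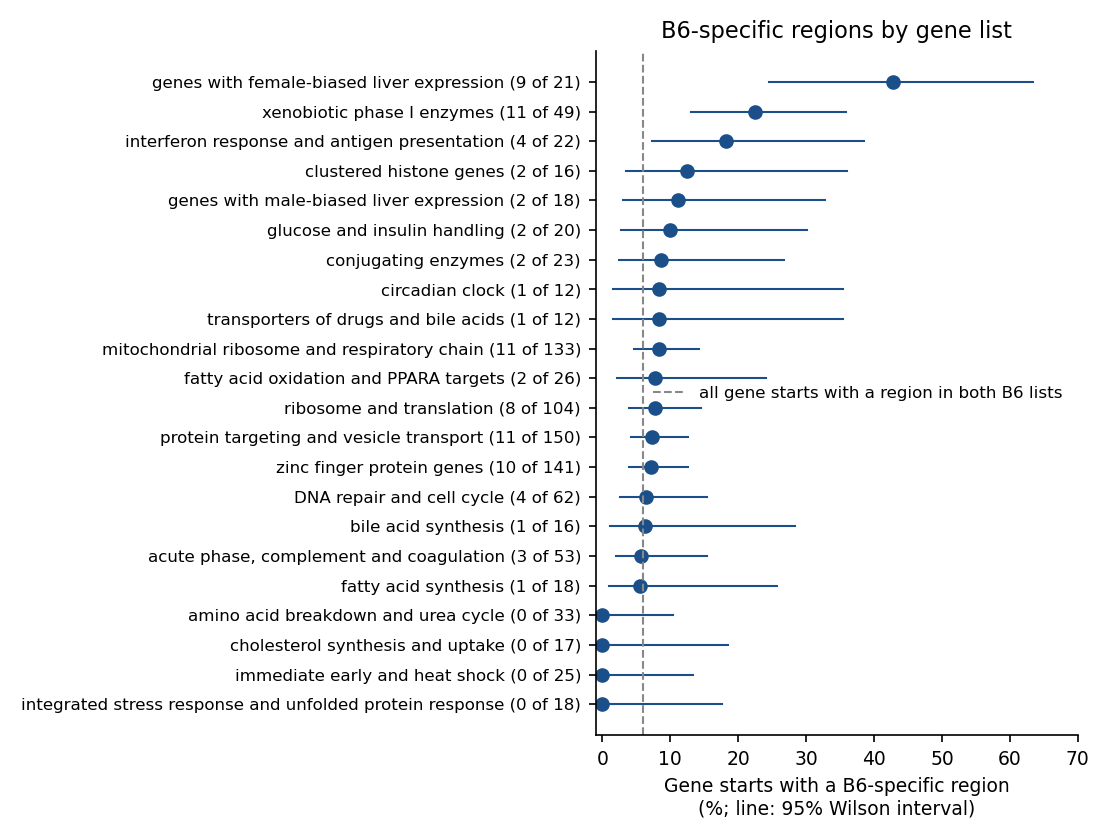
Share of gene starts with a B6-specific region (x axis, %, with 95% Wilson intervals) among those with a region in both B6 lists, by gene list (y axis, counts in brackets); the dashed line is the 6.01% of all such starts. The female-biased list stands at 42.9% and the phase I list at 22.4%.

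The members held more repeated sequence than regions in all 4 lists, as the MSM-specific regions at a TSS did. Over 10% of the 50-base words, the length of a read, occurred more than once in the reference genome at 42 of 340 members, 12.4% (9.27 to 16.3), against 4.29% of all regions at a TSS, 3.48% of those in all 4 lists and 9.01% (4.97 to 15.8) of the MSM-specific ones, whose interval overlaps that of the members. The share was 16.1% in the isolated and 8.43% in the flanked members. The highest of them were Ceacam1 (20.6% of words), Cyp2b9 (43.9%) and the 3 Srp54 copies. Apol9a and Apol9b, Sult2a1 and Sult2a2, Mup2 and Mup17, Hamp, Ifit3 and 6 Zfp genes, Zfp959 and Zfp958 among them, were of this kind too. MSM reads, like those of B6, were placed on the mm10 genome, which is of B6 origin, and the part of mapping in the calls at such copies was not tested. The study sequenced its reads in pairs, and the words take no account of the second read of a pair.

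Members of repeated sequence had an F1 BM peak at 23 of 42 (54.8%, 39.9 to 68.8) and an F1 MB peak at 16 (38.1%, upper limit 53.2). The other 298 had 59.1% (53.4 to 64.5) and 29.2% (24.3 to 34.6), close to the 58.5% and 30.3% of all 340.

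The members were poorer in CpG than the regions in all 4 lists, and less so than the MSM-specific ones. The observed over expected ratio of CpG was below 0.5 at 117 of 340 members, 34.4% (29.6 to 39.6), against 24.2% of all regions at a TSS, 22.3% of those in all 4 lists and 50.5% (41.3 to 59.6) of the MSM-specific regions at a TSS. Its median was 0.597 in the members, 0.655 in the isolated and 0.561 in the flanked, 0.681 in the regions of all 4 lists and 0.491 in the MSM-specific ones. CpG-poor members included Ifit3 (0.0354), Cyp2b13 (0.0872), Hamp (0.0935), Cyp2b9 (0.0965), Sult2a1 (0.0990) and Cyp4a14 (0.106), whereas H2-K1 (0.928), Edc3 (0.794) and the Srp54 copies (0.767 to 0.784) were CpG-rich. GC content had a median of 53.2% in the members and 56.2% in the regions of all 4 lists.

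Promoter motifs were counted in RefSeq promoters of GRCm38, from 250 bases before to 50 after the start, which matched 281 of the 370 genes. The letters CCAAT occurred in 43.1% (37.4 to 48.9) of them, in 50.0% at isolated and 36.7% at flanked members, against 38.8% of 16522 promoters of protein-coding genes and 37.6% of those at regions in all 4 lists. The GC box occurred in 64.8% (59.0 to 70.1), in 53.0% at isolated and 75.5% at flanked members, against 48.2% of all promoters and 65.6% of those at regions in all 4 lists. The ETS core occurred in 29.5% (24.5 to 35.1), against 19.7% of all promoters and 32.5% of those at regions in all 4 lists, and the TATA box in 7.83% (5.23 to 11.6), against 12.9% and 7.08%. The intervals of the members held the value at regions in all 4 lists, here called shared starts, for both motifs. For the E box the shares were 11.7% in members, 8.09% in all promoters and 10.4% at shared starts, for the nuclear receptor half-site 15.7%, 14.1% and 12.5%, and for the STAT palindrome 5.69%, 7.81% and 6.58%. The C/EBP palindrome occurred in 1.42% (0.555 to 3.602), against 0.230% and 0.294%, which rests on 4 genes.

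Of the members 31 held the starts of 2 or more genes, 9.12%, against 16.1% of the regions in all 4 lists, and 3 of the 31 held 3 starts. The highest were Srp54a with 2700097O09Rik, Atp6v1a, a subunit of the vacuolar proton pump, with Naa50, Fer with A930002H24Rik, Abhd12 with Gins1, and Ikzf5 with Acadsb. The pair Atp6v1a and Naa50 had 7.39 and 4.76 in B6, and 3.76 and 4.80 in F1 BM and F1 MB. Next to it lay a region with peaks of all 4 parental libraries. By chromosome the members were from 1.63% (chromosome 3) to 4.88% (chromosome 15) of the regions at a TSS, against 2.66% over all. Chromosomes 13, 7 and 16 had 4.44%, 3.80% and 3.70%. Of the 35 members on chromosome 7, 24 were isolated, against 51.2% of all members. The 35 include Ceacam1 and the Cyp2b and Sult2a genes.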

How the data were processed

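H3K9ac ChIP-seq of adult liver was analysed for 6 libraries, and 6 input libraries were not used. The authors trimmed reads with Trim Galore. The study's methods name Bowtie 2, whereas the submitters' processing notes name HISAT2, SAMtools and MACS2, with mm10 (GRCm38), so the mapper is not settled. Versions, the threshold and the use of input are not given in the sources used here. The deposited peak lists, 1 per library, gave a fold enrichment (a linear ratio), −log10 p-values and −log10 q-values and a score. The deposited −log10 q values started at 1.302, a q-value of 0.05. The score in the deposited lists was not used, nor were the deposited −log10 p-values or the summit offset. The lists hold no depth, and the read yields the study gives were not used here.

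Peaks were merged where they overlapped or touched, and an overlap of 1 bp made a call. Gene starts came from GENCODE M21, 1 per symbol. Shares have 95% Wilson intervals. The comparison code was tested on simulated data. Scripts used Python 3.11.15, scipy 1.17.1, numba 0.67.0 and matplotlib 3.10.9. Repeated words were counted in the GRCm38 chromosomes and unplaced contigs without alternate loci. Named genes were the 25 highest members by the lower B6 −log10 q, up to 4 per gene list, the highest without F1 peaks, with several starts or with repeated sequence, and those at the edge of the rule. Others are named in counts and were chosen after their values were seen. The members and gene lists were chosen with earlier results of these data known. Alternatives changed the window, the starts used, the overlap, the thresholds, list length, merging and the libraries.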

Additional observations from a re-analysis of the deposited data

How the results depend on the processing

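No paired analysis was possible because the results come from no test and the shared replicate numbers of B6 and MSM name separate mice. The number of B6-specific regions at a TSS, 340, was 197 with B6 peaks of −log10 q of at least 5, 531 with equal numbers of peaks, 195 with equal covered length, 172 with peaks up to 500 bp apart merged and 184 without MSM peaks within 500 bp. Leaving out 1 parental library gave 479 to 2873, the highest without B6 replicate 2 (479 without B6 replicate 1, 580 and 596 without MSM replicates 1 and 2). The F1 BM share, 58.5%, was 66.0%, 40.1% and 31.3% under the first 3 of these and 25.3 to 66.7% without 1 library. The F1 MB share, 30.3%, was 37.1%, 44.3% and 59.0%, and 11.7 to 43.5% without 1 library. The share with an MSM peak elsewhere in the window, 48.8%, was 36.9% with equal numbers, 23.6% with equal length, 2.33% with merging and 7.07% without MSM peaks within 500 bp, the last 2 by construction, and 42.9 to 61.0% without 1 library. The 9 female-biased genes were 4 with equal covered length and 5 without members of repeated sequence, an alternative chosen after seeing the data, as were all those for this list, and 9 to 16 without 1 library (16 without B6 replicate 2). A TSS window of 500 bp or 2 kb, all transcript starts, a 25% overlap and −log10 q of at least 3 left all 5 results within 1.5 times the count or the interval of the share. The cause of these shifts was not tested. The lists hold no depth, which limits what an absent peak can show.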
